A study of Mus musculus with 6 samples.

Results

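The omentum and the mesentery are fatty folds of the peritoneum that are both bathed by peritoneal fluid, and the macrophages of each were compared here over all time points of the study. Omental macrophages (OM) and mesenteric adipose tissue macrophages (MY) were sorted as CD45+CD11b+F4/80+ cells from female C57BL/6 mice. There was 1 library of each tissue from naive mice, 1 from mice 24 h after the intraperitoneal injection of ID8 cells and 1 from mice 7 d after it. ID8 cells derive from C57BL/6 mouse ovarian surface epithelium and model ovarian carcinoma in hosts of that strain. All 6 libraries of the series entered the comparison, 3 omental and 3 mesenteric. Omenta of several mice were pooled for each omental library, per the methods of the study, and how many mice gave a mesenteric library is not given in the sources used here. RNA was sequenced and reported as FPKM, the number of sequenced fragments scaled to transcript length and library size. Fold differences were taken on the log2(FPKM + 1) scale, which understates differences of weakly expressed genes. A tissue identity gene was one whose lowest library of one tissue lay at least 2-fold above its highest library of the other, so that no choice of time points could bring the tissues closer than that. These genes were picked by their values, and their counts are a description. The test across all genes was limma, with the 3 libraries of a tissue standing in as replicates. Its spread therefore holds the change with time as well as the variation between mice, which cannot be told apart with 1 library per condition. An exact permutation test of 3 libraries against 3 could not give a p below 0.10.

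Tissue macrophages take up debris, present antigen, and secrete chemokines, complement and growth factors, and each organ imprints its own program on them through lineage transcription factors and local signals. In the peritoneal cavity, macrophages of embryonic origin rely on Gata6, which is kept on by retinoic acid made by mesothelial and stromal cells, whereas monocytes that enter through Ccr2 replenish the other macrophages. The omentum carries milky spots, clusters of leukocytes under a mesothelial layer, and the mesentery carries the vessels and lymph nodes that drain the gut.

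Expressed genes were those that reached an FPKM of 1 in 1 library or more. Of 13064 such genes, out of 23946 in the table, 634 were tissue identity genes. Omental libraries were higher for 357 of them (2.73% of the expressed genes) and mesenteric libraries for 277 (2.12%). By limma, 532 genes (4.07%) were at least 2-fold higher in the omentum and 491 (3.76%) in the mesentery at an adjusted p below 0.05. Of the identity genes, 330 of the 357 omental and 270 of the 277 mesenteric ones also passed limma, a test on the same values. The gap was at least 4-fold for 121 omental and 67 mesenteric genes, and at least 16-fold for 13 and 7. Without the naive omental library, 1252 genes were at least 2-fold apart between all libraries of the tissues, 906 of them omental, and limma called 1848. Limma called 304 genes without the naive mesenteric library, 460 without that of 24 h and 501 without that of 7 d. At the threshold, Pim1 (gap 1.01 on the log2 scale) and Capg (gap 1.01) lay just inside on the omental side and Pltp (gap 0.99) just outside, and on the mesenteric side Klrc2 (gap 1.01) lay inside and Tspan3 (gap 0.995) outside.

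The FPKM values of a library summed to between 526887 and 713863, and low values gave a depth of 0.859 to 1.49 times that of the naive mesenteric library. Depth was least in the naive omental library and greatest in the omental library of 7 d. The table carries no read counts. In 56 genes a library was listed at 0 beside another of the same tissue at an FPKM of 10 or more. None of these was an identity gene, but the rule itself leaves out any gene with a 0 in the higher tissue. Identity genes may therefore have been missed through such a 0. Of the genes of the sort gate, Emr1, which encodes F4/80, was at 27.4, 135 and 26.5 FPKM in the omental libraries (naive, 24 h and 7 d, the order kept throughout) and 20.5, 68.6 and 37.5 in the mesenteric ones. Ptprc (CD45) was at 182, 106 and 124 against 188, 158 and 208, and Itgam (CD11b) at 91.2, 151 and 58.7 against 32.6, 52.01 and 27.8. The omental and mesenteric values overlapped for Emr1 and Ptprc. Itgam was higher in every omental library, with a gap of 0.17 on the log2 scale. None of the 3 passed limma (adjusted p = 0.82, 0.26 and 0.074). The pan-macrophage markers were expressed throughout. Of 14, 1 was an identity gene, the lipopolysaccharide co-receptor Cd14, at 141, 693 and 126 in the omentum and 7.33, 34.9 and 11.2 in the mesentery. Csf1r, the receptor for the macrophage growth factor M-CSF, was at 132, 569.8 and 103 against 121, 313 and 192.

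**Figure D1:**
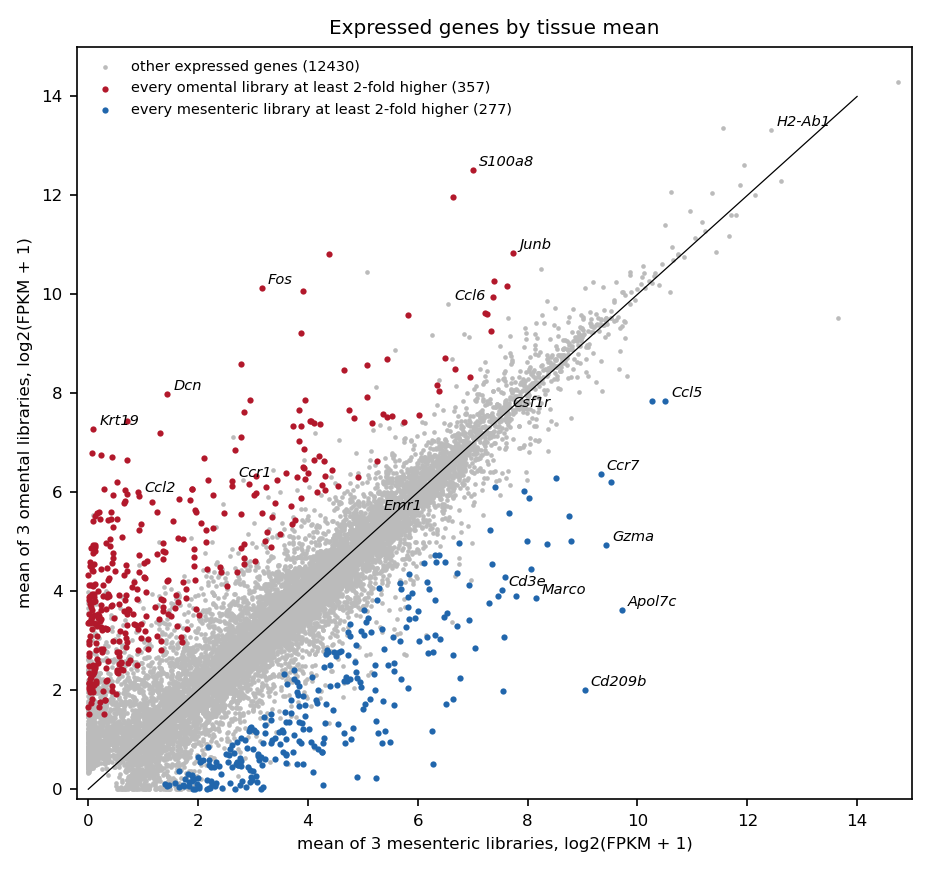
Mean log2(FPKM + 1) of the 3 mesenteric libraries (x axis) against that of the 3 omental libraries (y axis) for the 13064 expressed genes, 1 point a gene. Red points are the 357 omental and blue points the 277 mesenteric identity genes, grey points the other genes, and the line marks equal means; Emr1 and Csf1r lie near the line, while Fos and Cd209b lie far from it on opposite sides.

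The widest gap of the omental genes was that of Fos, which encodes a subunit of the AP-1 transcription factor and lies at chr12:86814840-86818223 on the plus strand (NCBIM37). Fos was at 729.8, 1715 and 1129 FPKM in the omental libraries and at 8.17, 9.52 and 6.37 in the mesenteric ones (log2 difference 6.98, SE 0.32, adjusted p = 0.00055). The lowest omental library lay 6.12 above the highest mesenteric one on the log2 scale. Fos belongs to the immediate early genes, which are switched on within minutes of a stimulus such as a growth factor, stress or the dissociation of a tissue, without new protein synthesis. Of the 24 on the list, all expressed, 18 were omental identity genes and 0 mesenteric, and 19 passed limma toward the omentum. The median difference of the list was 2.14 (log2), against 0.01 over all expressed genes. The list summed to 7273 to 10159 FPKM in the omental libraries and to 1821 to 1880 in the mesenteric ones.

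In these genes the difference between the tissues was large beside the change with time. Of the sum of squares over the 24 genes, 94.5% lay between the tissues and 4.14% between time points, against 59.7% and 23.5% over all expressed genes. Junb, another AP-1 subunit, was at 1439, 2041 and 2085 in the omentum and 198, 235 and 205 in the mesentery (log2 difference 3.102, SE 0.21, adjusted p = 0.0015). The naive omental library was the lowest of its tissue and still lay far above all mesenteric ones. The zinc finger factor Egr1 was at 239, 445 and 426 against 27.6, 17.4 and 29.8 (log2 difference 3.82, SE 0.31, adjusted p = 0.0017), and the stress-induced factor Atf3 at 140.2, 101 and 183 against 6.96, 6.04 and 4.84 (log2 difference 4.33, SE 0.25, adjusted p = 0.00071). Dusp1, a phosphatase that turns off MAP kinases, was at 611, 937 and 780.1 against 35.6, 92.3 and 51.6, and Zfp36, which speeds the decay of cytokine mRNAs, at 835, 1281 and 901 against 144, 168 and 183. Both feedback inhibitors were higher in all omental libraries, with log2 differences of 3.76 (SE 0.35) and 2.58 (SE 0.22). The orphan nuclear receptors Nr4a1 and Nr4a2 differed by 2.898 and 1.38, and Fosb, Jun, Ier2, Ier3, Btg2, Klf4, Klf6, Egr2, Socs3 and Nfkbiz made up the remaining identity genes of the list, with differences from 1.36 (Klf6) to 4.91 (Ier3). Ptgs2, the inducible cyclooxygenase, was the 1 identity gene of the 20 expressed eicosanoid genes, at 7.998, 16.7 and 13.3 in the omentum and 0.233, 0.108 and 0.184 in the mesentery (log2 difference 3.48, SE 0.28, adjusted p = 0.0017). Of the heat shock list, which has 18 expressed members, 3 were omental identity genes. Hspb1 was at 19.9, 68.4 and 196 against 0.793, 0.622 and 0.357. Hspa1a and Hspa1b were also higher, but 54.8% and 55.6% of the 75-base windows of their transcripts are shared with the other, so their separate values are uncertain.

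Of the 24 immediate early genes, 20 had a promoter in RefSeq (GRCm38.p6, from 250 bases before to 50 after each start). The recognition sequences of the factors known to control such genes were searched on both strands, and only the 250 bases before the start are shown. The CArG box, bound by serum response factor, was found in 2 of the 20 genes (10%), Egr2 and Zfp36, and in 1.62% of the 10374 expressed genes with a promoter. The cAMP response element TGACGTCA was also found in 2 of the 20, Dusp1 and Btg2, and in 3.44% of the expressed genes. These 4 promoters are shown because they hold motifs of immediate early genes, which with the collagens had the largest share of omental identity genes among the pathway lists, and capitals mark the motif.
Egr2, chr10:67537316-67537565, plus strand, CArG box: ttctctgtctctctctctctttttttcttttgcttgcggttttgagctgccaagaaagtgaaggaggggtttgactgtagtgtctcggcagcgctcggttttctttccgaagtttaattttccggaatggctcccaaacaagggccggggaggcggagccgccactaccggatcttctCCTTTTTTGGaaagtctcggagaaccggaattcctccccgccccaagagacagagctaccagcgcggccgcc
Zfp36, chr7:28379229-28379478, minus strand, CArG box: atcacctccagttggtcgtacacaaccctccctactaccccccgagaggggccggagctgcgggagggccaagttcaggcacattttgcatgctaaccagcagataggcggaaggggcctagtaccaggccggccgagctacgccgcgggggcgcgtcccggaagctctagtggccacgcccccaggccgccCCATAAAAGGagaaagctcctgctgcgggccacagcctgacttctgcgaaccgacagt
Dusp1, chr17:26508473-26508722, minus strand, cAMP response element: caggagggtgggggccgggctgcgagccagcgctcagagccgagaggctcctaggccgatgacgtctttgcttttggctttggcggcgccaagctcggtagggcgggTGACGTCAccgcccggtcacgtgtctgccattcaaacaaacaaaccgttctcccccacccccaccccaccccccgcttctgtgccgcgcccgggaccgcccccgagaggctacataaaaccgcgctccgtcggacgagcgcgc
Btg2, chr1:134079156-134079405, minus strand, cAMP response element: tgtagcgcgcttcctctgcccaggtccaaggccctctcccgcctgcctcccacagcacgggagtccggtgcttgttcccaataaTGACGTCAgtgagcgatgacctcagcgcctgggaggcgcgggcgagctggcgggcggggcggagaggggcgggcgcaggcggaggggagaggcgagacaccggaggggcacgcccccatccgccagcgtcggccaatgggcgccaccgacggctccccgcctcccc
The motifs began 72, 58, 143 and 166 bases before the start. The AP-1 site TGACTCA, which Fos and Jun proteins bind, was in none of the 20 genes. Over all omental identity genes it was in 26 of 264 with a promoter (9.85%), against 11 of 208 mesenteric ones (5.29%), 4.78% of the expressed genes and 5.20% of all 32851 promoters in the table. Among the omental genes that held it were Il6, Plaur, Emp1, Tnfaip6, Csrnp1, C3ar1, Clec4a2 and Col6a1. The kappaB motif was in 6 of the 20 immediate early genes (30%), Fos, Fosb, Egr2, Ier3, Nr4a1 and Nfkbia. It was in 13.6% of the omental, 12.5% of the mesenteric and 9.75% of the expressed genes. The cAMP response element was in 4 of 264 omental identity genes (1.52%), below its share of the expressed genes. Genes with several promoters were counted once, with a match in any of them. A match says only that these letters lie in the window.

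**Figure D2:**
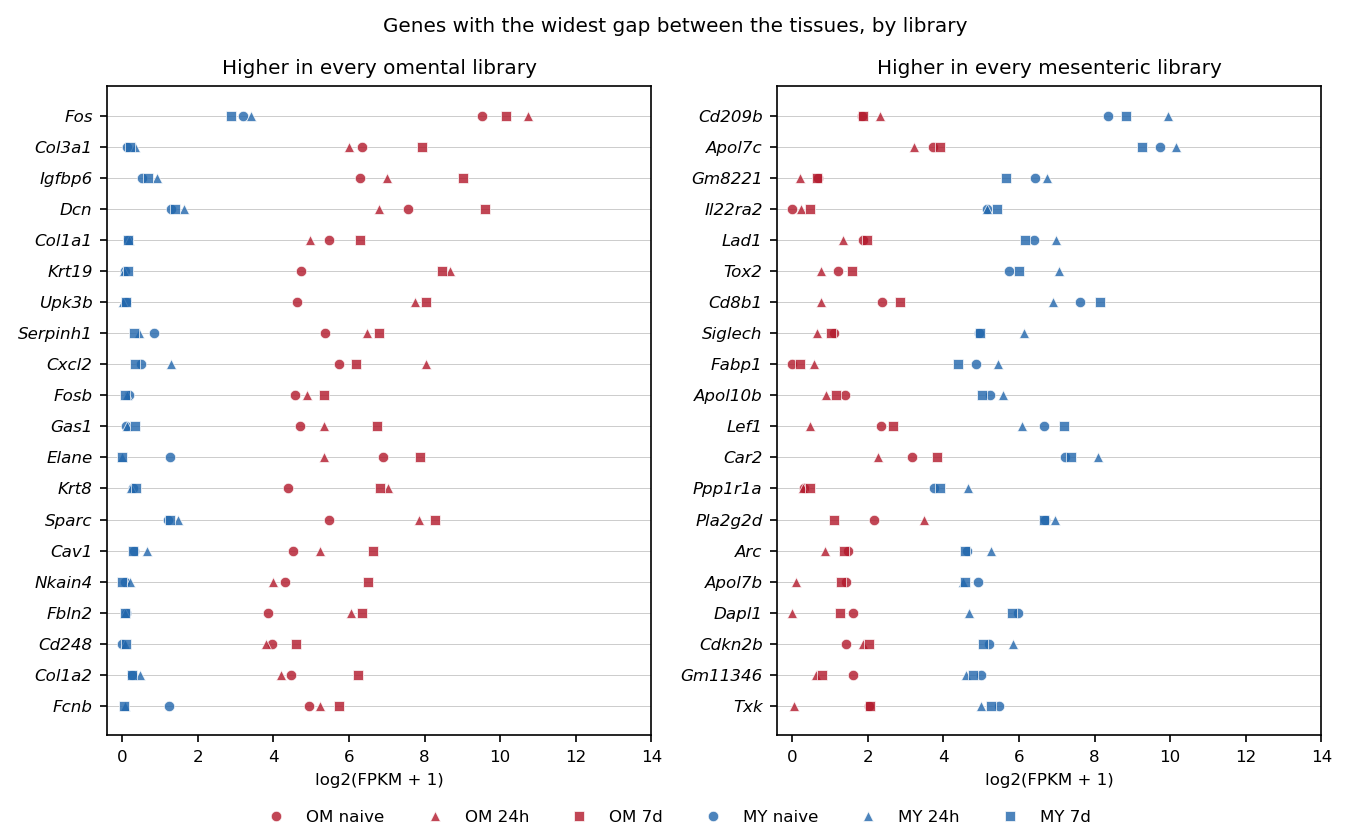
Expression on the log2(FPKM + 1) scale (x axis) of the 20 omental (left) and 20 mesenteric (right) identity genes with the widest gap among those that reached an FPKM of 10 in all libraries of the higher tissue. Each point is 1 library; red marks omental and blue mesenteric libraries, and circles, triangles and squares mark naive, 24 h and 7 d. The colors do not overlap for any gene, and the omental values spread more over time for Krt19 than for Fos.

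Genes of stromal cells made up most of the other wide gaps. Collagen genes were almost silent in the mesenteric libraries, where all 22 on the list were below 1 FPKM, and 12 of the 16 expressed ones were omental identity genes, with 11 passing limma. Col3a1, a fibrillar collagen, was at 80.5, 62.8 and 242 in the omentum and 0.0973, 0.256 and 0.157 in the mesentery (log2 difference 6.53, SE 0.47, adjusted p = 0.0017). Col1a1 was at 43.7, 30.4 and 76.97 against 0.119, 0.132 and 0.11. The proteoglycan decorin, Dcn, was at 189, 109 and 782 against 1.46, 2.0995 and 1.61. These genes peaked in the omental library of 7 d and were lowest in that of 24 h. Serpinh1, the collagen chaperone, was at 39.95, 87.3 and 110.2 against 0.775, 0.367 and 0.231, and Sparc, a secreted collagen-binding protein, at 43.1, 231 and 311 against 1.33, 1.77 and 1.38. Igfbp6, which binds insulin-like growth factor, was at 77.7, 128 and 514 against 0.444, 0.872 and 0.598 (log2 difference 6.74, SE 0.63, adjusted p = 0.0029). These 3 rested lowest in the naive omental library instead. Of the 10 fibroblast markers, 9 were omental identity genes and 9 were below 1 FPKM in every mesenteric library, and the list summed to 259.4 to 1311 FPKM in the omentum and 2.33 to 3.78 in the mesentery.

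Mesothelial markers followed a different course within the omentum. All 9 expressed markers were omental identity genes and below 1 FPKM in every mesenteric library, with sums of 105.8 to 1076 FPKM in the omentum and 1.14 to 2.07 in the mesentery. Krt19, a keratin, was at 25.4, 406 and 349 in the omentum and 0.0546, 0.0227 and 0.105 in the mesentery, and Upk3b, a uroplakin of the mesothelial surface, at 23.7, 215 and 259 against 0.0682, 0.014 and 0.0669. Both were far lower in naive omentum than at either later time. Wt1, a transcription factor of the mesothelium, was at 2.16, 25.2 and 38.1 against 0, 0.00867 and 0, and Msln, mesothelin, at 5.27, 53.8 and 59.2 against 0.015, 0.0247 and 0.128. Fibroblasts and mesothelial cells carry no CD45, which the gate required. Keratins are on the mesothelial list, and the study stained keratins to detect ID8 cells in the omentum. Whether fibroblasts, mesothelial cells or, in the libraries after the injection, ID8 cells were in the sorted fraction was not tested. In bulk libraries fewer cells of a type and less RNA per cell cannot be told apart. Among genes that both stromal and myeloid cells can express, Gas6, the bridging ligand of TAM receptors, was at 26.3, 69.9 and 139 against 1.17, 0.414 and 1.13, Cav1 at 21.99, 36.8 and 99.02 against 0.236, 0.566 and 0.221, and Timp3 at 4.34, 23.2 and 37.6 against 0.807, 0.757 and 0.643. Aldh1a1, which makes retinoic acid, was at 1.83, 44.6 and 173 against 0.0663, 0.0216 and 0.199, and Gata6, like it, was highest in the omentum at 7 d (2.06, 15.9 and 36.7 against 0.298, 0.245 and 0.201). Neither passed limma (adjusted p = 0.077 and 0.054), and both spanned a wide range within the omentum.

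**Figure D3:**
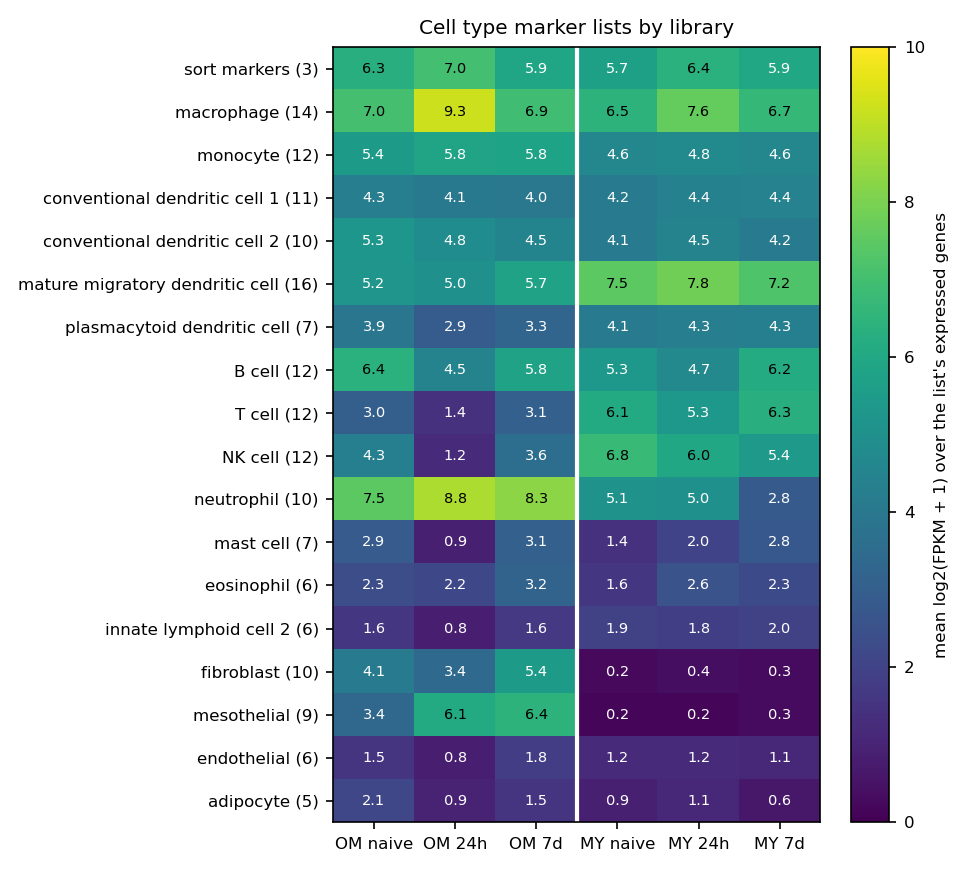
Mean log2(FPKM + 1) over all genes of each cell type marker list that have values (rows, labeled with the number expressed) in each library (columns). The value is printed in the cell and shown by color, and genes that were not expressed entered the mean too. Fibroblast, mesothelial and neutrophil lists were higher in all omental libraries, and T cell, NK cell and mature migratory dendritic cell lists in all mesenteric ones.

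Neutrophil genes were the most abundant of the omental identity genes. S100a8 and S100a9, which form the calcium-binding complex calprotectin, were at 3020.2, 7826 and 8381 and 2397, 4836 and 5621 FPKM in the omentum. In the mesentery they were at 288, 219 and 32.1 and 275, 156 and 22.1. The gap for S100a8 was 3.39 on the log2 scale, and the mesenteric values were lowest at 7 d. Of 10 expressed neutrophil markers, 7 were identity genes and 6 passed limma. The receptor genes Cxcr2 (5.14, 13.96 and 3.43 against 4.56, 5.59 and 4.203) and Csf3r (6.21, 24.1 and 9.36 against 5.99, 13.4 and 6.46) overlapped between the tissues (adjusted p = 0.63 and 0.61). The granule genes Ngp (970.2, 2352 and 2613 against 147, 38.04 and 0.608), Ltf (213, 523 and 517 against 29.96, 8.84 and 0.0848) and Camp (440.2, 1294 and 2128 against 95.7, 31.98 and 0.0529) were lower in the mesentery at each later time point, and Camp did not pass limma (adjusted p = 0.058). Elane, which encodes the elastase of immature neutrophils, was at 118, 39.4 and 235 against 1.41, 0 and 0. The neutrophil list summed to 7555 to 19873 FPKM in the omentum and 243.2 to 899.9 in the mesentery. Neutrophils have little or no F4/80, which the gate required. The part of neutrophils in other omental genes that they express, such as Lcn2, Mmp8, Mmp9, Il1b, Cxcl2, Clec12a and Trem1, was not tested.

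Monocyte and resident macrophage genes leaned to the omentum. Of 12 monocyte markers 4 were omental identity genes, Ccr2, F13a1, Nr4a1 and Chil3, and 5 passed limma. Ccr2, the receptor that brings monocytes out of the marrow and into tissue, was at 137, 303 and 112 against 36.6, 42.6 and 27.2 (log2 difference 2.23, SE 0.38, adjusted p = 0.017). F13a1, coagulation factor XIII, was at 64.6, 157 and 48.5 against 4.43, 12.998 and 6.44, and Chil3, a chitinase-like protein of alternatively activated macrophages, at 157, 555 and 629 against 36.2, 53.99 and 18.1. Each peaked at 24 h or, for Chil3, at 7 d. Of 20 genes of resident macrophages, 6 were omental identity genes and 0 mesenteric, and 5 passed limma. Lyve1, the hyaluronan receptor of perivascular macrophages, was at 53.5, 55.3 and 5.96 against 2.26, 1.79 and 1.04 (log2 difference 3.39, SE 0.79, adjusted p = 0.044). Vsig4, a complement receptor, was at 27.8, 37.2 and 1.53 against 0.0374, 0 and 0. Both were lowest in the omentum at 7 d, and Vsig4 did not pass limma (adjusted p = 0.055). Fcrls, a receptor-like gene of the Fc receptor family, was at 105, 169 and 8.27 against 0.451, 1.41 and 0.106, with a similar low value at 7 d. Folr2 (81.6, 220.0 and 14.5 against 9.86, 25.7 and 8.45), Mrc1 (20.8, 50.5 and 7.13 against 5.46, 18.5 and 8.604), Cd163 (18.2, 21.04 and 3.13 against 1.33, 5.67 and 3.77) and Timd4 (27.8, 13.5 and 5.304 against 23.5, 38.8 and 27.3) overlapped between the tissues. Of these, Timd4 leaned to the mesentery (log2 difference -1.66 to -0.57 when each library was left out) and the others to the omentum. Of 16 genes of large peritoneal macrophages, 3 were omental identity genes, Gata6, Fn1 and Cd93. Limma called 2, Fn1 and Padi4, and did not call Gata6 or Cd93 (adjusted p = 0.054 and 0.1). Of the same list Cd5l, a macrophage apoptosis inhibitor, was higher in every mesenteric library (5.97, 16.5 and 1.403 in the omentum against 29.8, 103 and 47.7), without passing limma (adjusted p = 0.053), and so was Naip1 at low levels (0.0762, 0.815 and 0.321 against 1.55, 3.78 and 2.03).

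Alternatively activated macrophages carry lectins and chitinase-like proteins induced by interleukin-4, and of 14 genes of this list 5 were omental identity genes and 1, Socs2, mesenteric, with 12 of 14 differences above 0. Mgl2 was at 127, 149.6 and 57.4 against 2.25, 4.54 and 3.38 (log2 difference 4.602, SE 0.39, adjusted p = 0.002). The related lectin Clec10a was at 88.6, 136 and 61.5 against 10.3, 28.4 and 9.21, and 10.2% of its transcript's windows are shared with Mgl2. Retnla, the gene of this list with the highest level in naive omentum, was not an identity gene. It was at 3681, 2402 and 311 against 23.6, 221 and 5.97, so that its mesenteric value at 24 h came within 2-fold of its omental value at 7 d, and the tissue difference of 5.38 (SE 1.39) did not pass limma (adjusted p = 0.059). The lipid genes Lpl (43.3, 98.5 and 43.5 against 1.05, 4.35 and 1.81), which encodes lipoprotein lipase, and Spp1 (7.35, 219.6 and 41.9 against 1.498, 2.67 and 1.66), osteopontin, were the 2 of 23 lipid-handling genes with a tissue identity. Lpl passed limma (adjusted p = 0.0041) and Spp1 did not (adjusted p = 0.066).

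C-type lectins split by tissue. Of 29 expressed, 7 were omental identity genes and 4 mesenteric, and 8 and 6 passed limma. Within the Cd209 family, relatives of human DC-SIGN, Cd209a was at 264, 104 and 82.04 in the omentum and 11.8, 15.3 and 13.2 in the mesentery (log2 difference 3.201, SE 0.41, adjusted p = 0.0071). Cd209b, the SIGN-R1 lectin of marginal zone and lymph node sinus macrophages, was at 2.59, 3.95 and 2.63 in the omentum and 324, 976 and 458 in the mesentery (log2 difference -7.03, SE 0.39, adjusted p = 0.00071). Cd209b, at chr8:3917657-3926844 on the minus strand, had the widest gap of all mesenteric identity genes. Cd209e was on the mesenteric side as well, at 0.293, 0.577 and 0.797 against 4.57, 10.2 and 3.95. Clec4b1 (94.6, 99.8 and 29.8 against 1.81, 5.42 and 1.86), Clec7a, the beta-glucan receptor Dectin-1 (55.4, 214 and 81.98 against 13.97, 17.8 and 17.5), Clec4a2 and Clec12a were omental. Clec1b, the podoplanin receptor CLEC-2, was at 0.806, 0.25 and 0.255 against 9.37, 21.2 and 13.5, and Clec4a4 at 2.07, 0.79 and 1.16 against 5.78, 8.39 and 7.39; 12.7% of the Clec4a4 windows are shared with Clec4a2.

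Of 24 scavenger and efferocytosis receptors, 3 were omental and 2 mesenteric identity genes, as many passed limma in each direction, and 16 differences were above 0 (median 0.85 on the log2 scale). Marco, a receptor for bacteria and particles, was at 10.5, 42.3 and 5.17 in the omentum and 202, 537 and 208 in the mesentery (log2 difference -4.29, SE 0.73, adjusted p = 0.017), and both tissues peaked at 24 h. Stab2 was at 0.0163, 0.0967 and 0.00934 against 1.83, 3.36 and 2.09. Msr1, scavenger receptor A, was at 27.5, 143 and 25.3 against 6.798, 10.6 and 7.02 and did not pass limma (adjusted p = 0.062). Of 28 lineage transcription factors, 2 were omental (Nr4a1 and Klf4) and 3 mesenteric. Spic, the factor of red pulp macrophages, was at 1.099, 6.12 and 0.985 against 32.3, 40.3 and 22.9 (log2 difference -3.37, SE 0.51, adjusted p = 0.012). Rxra, the partner of nuclear receptors, was at 5.82, 11.99 and 5.904 against 34.4, 72.5 and 38.4, and Relb, a subunit of the noncanonical NF-kappaB pathway, at 64.3, 65.9 and 63.7 against 251, 289.6 and 197. Relb hardly varied among the omental libraries.

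**Figure D4:**
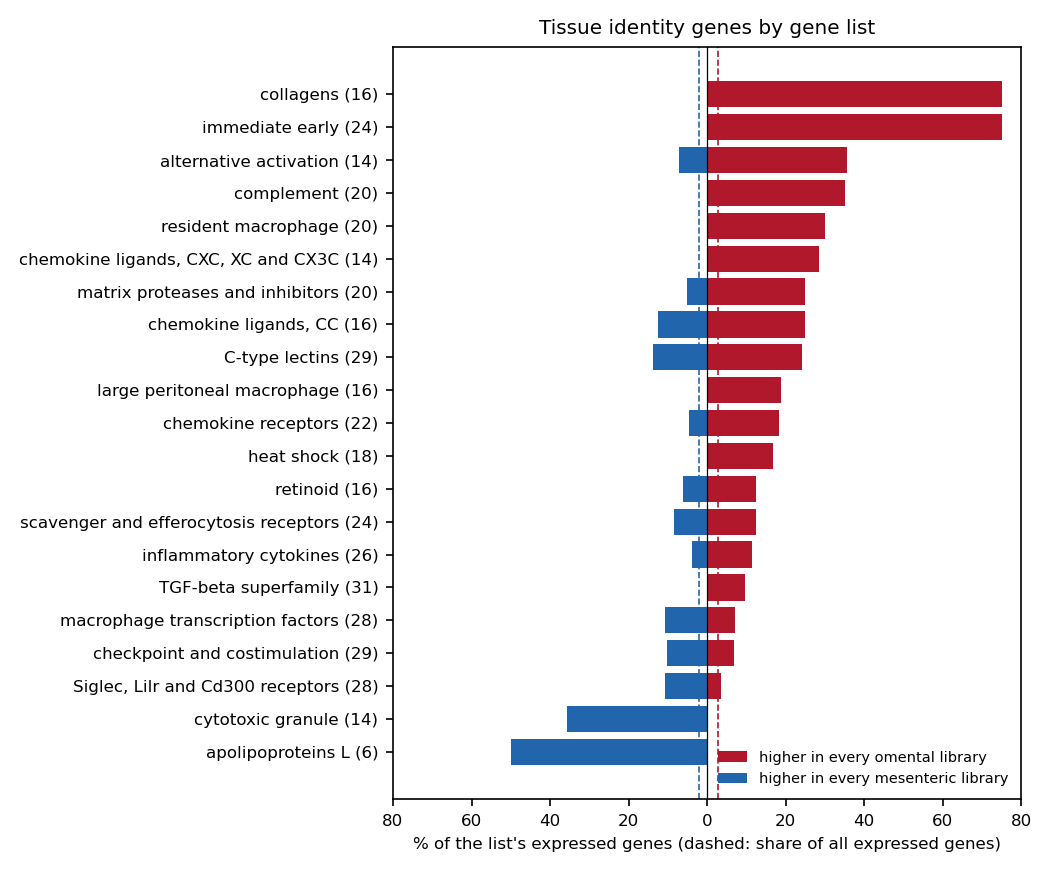
Share of the expressed genes of each list (rows, with the number expressed) that were omental (red, to the right) or mesenteric (blue, to the left) identity genes, for pathway lists with at least 3 such genes. The dashed lines mark the shares of all expressed genes, 2.73% and 2.12%; collagens and immediate early genes stand highest on the omental side and apolipoproteins L on the mesenteric side.

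Chemokines were the next group. CC chemokines mainly attract monocytes, dendritic cells and T cells, and most CXC chemokines attract neutrophils or lymphocytes. Of 16 expressed CC ligands 4 were omental (Ccl2, Ccl7, Ccl9 and Ccl24) and 2 mesenteric (Ccl5 and Ccl22), and of 14 CXC, XC and CX3C ligands 4 were omental (Cxcl1, Cxcl2, Cxcl12 and Cxcl13) and 0 mesenteric. Limma called 5 and 2 of the CC ligands and 4 and 0 of the others. Ccl2 and Ccl7, 2 ligands of Ccr2, lie side by side at chr11:81849073-81850955 and chr11:81859214-81861027. Ccl2 was at 29.01, 130.4 and 55.2 in the omentum and 1.47, 0.937 and 0.403 in the mesentery (log2 difference 5.004, SE 0.52, adjusted p = 0.0039). Ccl7 was at 23.7, 125 and 26.4 against 0.931, 0.243 and 0.239 (log2 difference 4.94, SE 0.62, adjusted p = 0.0064). Ccr2 and these 2 ligands were thus higher in the same tissue at every time point. Ccl12, another ligand of Ccr2, was at 7.55, 182 and 26.3 against 10.8, 15.3 and 5.51, lower in the omentum in naive mice, and did not pass limma (adjusted p = 0.33). Cxcl2 was at 51.95, 262 and 71.7 against 0.402, 1.45 and 0.271, Cxcl1 at 8.94, 29.4 and 16.5 against 0.125, 0.252 and 0.229, and Cxcl13, the B cell attractant of milky spots, at 107, 119.8 and 92.8 against 12.6, 31.6 and 12.9. Cxcl13 stayed within a narrow range in the omentum, whereas Cxcl1 and Cxcl2 peaked at 24 h. Ccl24, an eosinophil attractant, was at 16.6, 57.3 and 4.99 against 0.386, 1.06 and 0.994.

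Ccl9, which signals through Ccr1, was at 147, 296 and 96.03 in the omentum and 6.29, 33.6 and 8.38 in the mesentery (log2 difference 3.61, SE 0.65, adjusted p = 0.02). Ccr1 was at 65.7, 128 and 48.2 against 2.81, 8.58 and 5.399 (log2 difference 3.61, SE 0.45, adjusted p = 0.0062). Ccl6, another ligand of Ccr1, was at 777, 1901 and 489 against 34.3, 282 and 81.7. Its omental level was the highest of the CC ligands there, but the mesenteric value at 24 h came within 2-fold of the omental value at 7 d (gap 0.79 on the log2 scale). The tissue difference of Ccl6, 3.26 with an SE of 0.80, did not pass limma (adjusted p = 0.052), and Ccl6 was not an identity gene. Ccl8 (42.2, 681 and 33.1 against 16.02, 22.4 and 7.85) and Ccl12 (7.55, 182 and 26.3 against 10.8, 15.3 and 5.51) stood farthest above the mesentery in the 24 h library and did not pass the test either (adjusted p = 0.17 and 0.33). In the opposite direction, Ccl5, an attractant of T cells and monocytes, was at 345, 135 and 256 in the omentum and 1969, 1696 and 928 in the mesentery (log2 difference -2.67, SE 0.42, adjusted p = 0.013). Ccl22, which attracts Ccr4-bearing T cells, was at 19.9, 24.98 and 62.7 against 199, 317 and 256 (log2 difference -2.96, SE 0.42, adjusted p = 0.0096). Of 22 chemokine receptors, 4 were omental, Ccr1, Ccr2, Ccrl2 and the scavenging receptor Ackr3, and 1 was mesenteric. This was Ccr7, which guides dendritic cells and naive T cells to lymph nodes, at 93.8, 49.2 and 116 against 526, 761 and 661 (log2 difference -2.97, SE 0.33, adjusted p = 0.0043).

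**Figure D5:**
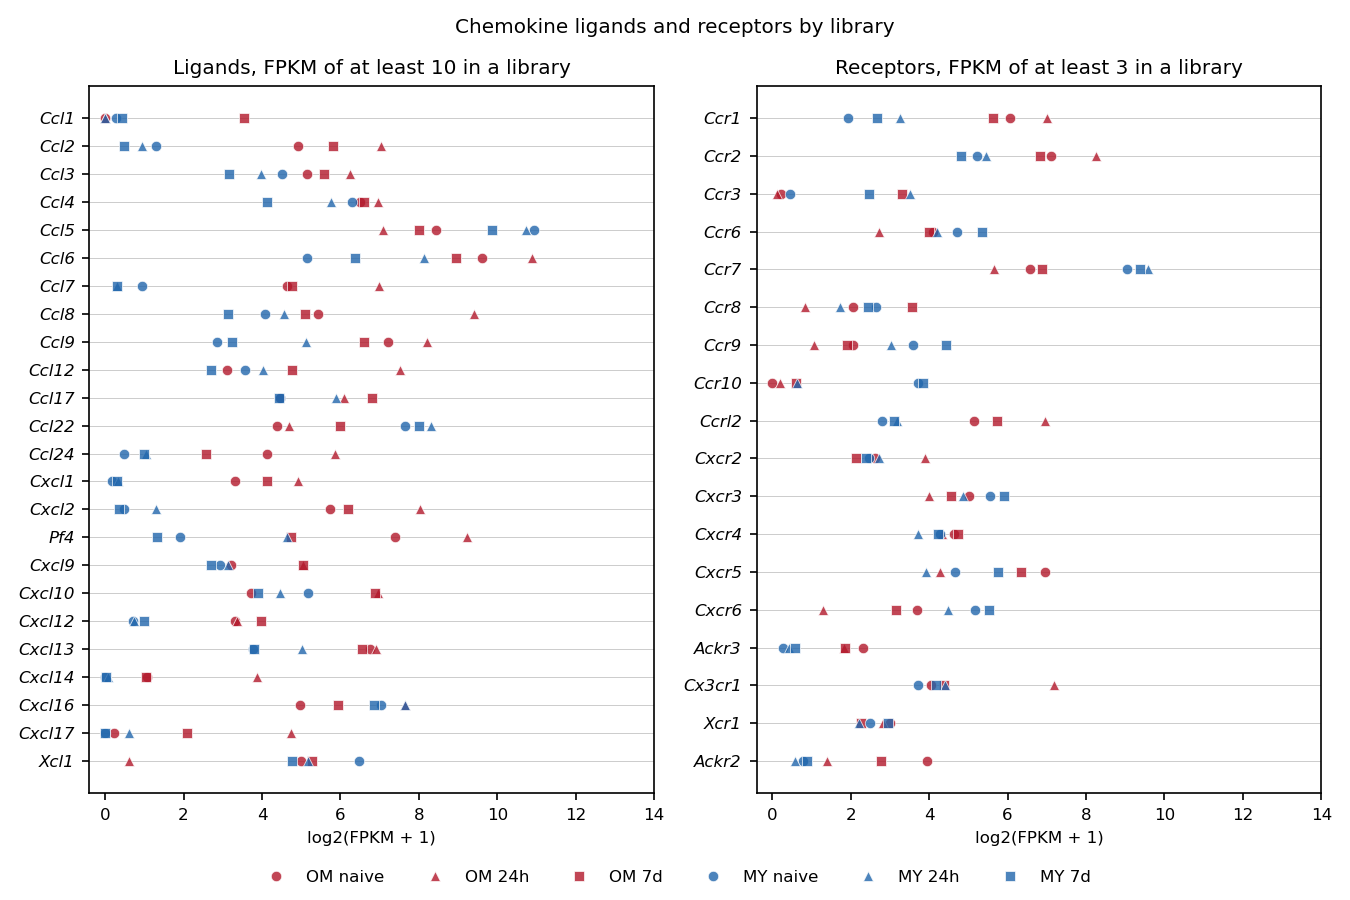
Expression on the log2(FPKM + 1) scale (x axis) of 24 chemokine ligands at an FPKM of at least 10 in a library (left) and 18 of the receptors at an FPKM of at least 3 in a library (right). Each point is 1 library; red marks omental and blue mesenteric libraries, and circles, triangles and squares mark naive, 24 h and 7 d. Red and blue lie far apart for Ccl2, Ccl7, Cxcl2 and Ccr1, and the order is the opposite for Ccl5, Ccl22 and Ccr7.

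Complement genes leaned to the omentum. Of 20 expressed components, regulators and receptors, 7 were omental identity genes and 0 mesenteric, and 4 passed limma. C3, the central component, was at 124, 117 and 401 in the omentum and 24.1, 31.9 and 27.2 in the mesentery (log2 difference 2.67, SE 0.46, adjusted p = 0.018), and C4b at 50.8, 42.4 and 23.1 against 0.578, 1.74 and 0.575 (log2 difference 4.32, SE 0.36, adjusted p = 0.0019). The C1 inhibitor Serping1 ran from 11.8 to 227 FPKM in the omentum and from 1.14 to 1.31 in the mesentery. The receptors C3ar1 (11.4, 101 and 9.46 against 0.347, 2.34 and 0.802) and C5ar1 (40.03, 257 and 34.1 against 4.25, 14.4 and 4.51) peaked at 24 h in both tissues. Fcgr2b, the inhibitory Fc receptor, was at 209, 453 and 151 against 27.4, 39.8 and 32.1 (log2 difference 2.85, SE 0.39, adjusted p = 0.0089), and Tlr2 at 31.3, 104 and 49.3 against 7.36, 11.8 and 9.92 (log2 difference 2.397, SE 0.42, adjusted p = 0.018). Of 26 cytokine and cytokine receptor genes, 3 were omental. Il1b was at 112, 249 and 163 against 21.7, 20.5 and 12.2 (log2 difference 3.17, SE 0.34, adjusted p = 0.0041), Il6 at 5.21, 12.03 and 5.02 against 1.34, 0.402 and 0.335, and the anti-inflammatory Il10 at 14.7, 9.98 and 9.37 against 1.35, 2.24 and 1.22. Il18r1 was the 1 mesenteric gene of the list.

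Genes of mature migratory dendritic cells, T cells and NK cells were prominent among the mesenteric identity genes. Of 16 genes of mature migratory dendritic cells, 10 were mesenteric identity genes and 0 omental, and 11 passed limma toward the mesentery. The list summed to 4854 to 7531 FPKM in the mesentery and 1184 to 1566 in the omentum. Fscn1, the actin bundler of dendritic cell protrusions, was at 43.02, 22.4 and 31.5 in the omentum and 759, 399.9 and 280.4 in the mesentery (log2 difference -3.77, SE 0.40, adjusted p = 0.0039). Il4i1, an enzyme that breaks down phenylalanine and tryptophan, was at 55.1, 37.7 and 43.8 against 406, 585 and 339 (log2 difference -3.23, SE 0.25, adjusted p = 0.0017). Cd83 (204, 101 and 202 against 185, 261 and 246) and Ccl17 (20.9, 66.6 and 111 against 20.98, 58.7 and 20.5), also on that list, overlapped between the tissues. Siglech, a marker of plasmacytoid dendritic cells that some macrophages also express, was at 1.15, 0.574 and 1.03 against 29.9, 68.9 and 30.1, and it was the only identity gene of the 7 plasmacytoid markers. The lists of conventional dendritic cells did not share this direction. Of 11 markers of type 1, 0 were identity genes (median log2 difference -0.16). Of 10 markers of type 2, 3 were omental (Cd209a, Clec10a and Mgl2) and 2 mesenteric (Clec4a4 and Cd1d1), with a median of 0.43. Ido1, which degrades tryptophan, was at 0, 0 and 0.117 against 9.64, 8.39 and 2.89. Il22ra2, the soluble decoy receptor of interleukin-22, was at 0, 0.162 and 0.377 against 34.5, 34.4 and 42.1 (log2 difference -5.02, SE 0.20, adjusted p = 0.00055), and Pla2g2d, a phospholipase of lymphoid tissue dendritic cells, at 3.44, 10.2 and 1.15 against 103, 123 and 101.

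The apolipoproteins L are intracellular lipid-binding proteins encoded by a gene cluster. Of 6 expressed members 3 were mesenteric identity genes, and all 3 passed limma. Apol7c was at 12.1, 8.26 and 14.1 in the omentum and 853, 1144 and 604 in the mesentery (log2 difference -6.099, SE 0.29, adjusted p = 0.00055). Apol10b was at 1.62, 0.844 and 1.24 against 36.9, 46.7 and 31.7, and Apol7b at 1.697, 0.0715 and 1.42 against 28.9, 21.9 and 22.9. Apol7c, Apol10b and the neighboring Gm8221 (0.597, 0.145 and 0.558 against 85.4, 106 and 49.2) lie within chr15:77355297-77456620 (NCBIM37). Of the Gm8221 windows 36.4% are shared with Apol7c, and of the Apol7b windows 64.4% with Apol7e, so these 2 values are uncertain. Apol7c itself shares 8.32% of its windows.

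T cell genes showed the same direction. Of 12 markers, 11 were mesenteric identity genes and 11 passed limma. Cd3e, a chain of the T cell receptor complex, was at 28.003, 3.98 and 28.4 in the omentum and 237, 104 and 256 in the mesentery (log2 difference -3.52, SE 0.73, adjusted p = 0.031). Cd8b1 was at 4.196, 0.688 and 6.15 against 195, 118 and 284 (log2 difference -5.57, SE 0.57, adjusted p = 0.0037), and Cd4 at 8.48, 8.79 and 8.77 against 47.8, 49.5 and 68.1 (log2 difference -2.52, SE 0.18, adjusted p = 0.0016). Within both tissues most T cell genes were lowest at 24 h, whereas Cd4, which macrophages and dendritic cells also express in some settings, was level in the omentum. Cd3g, Cd3d and Cd3e lie within chr9:44777655-44817673. The T cell factors Tcf7 (21.7, 5.295 and 22.7 against 221, 163 and 296) and Lef1 (4.06, 0.374 and 5.37 against 99.9, 66.95 and 145) and the kinase Lck (46.6, 4.39 and 39.7 against 333, 187 and 306) were higher in every mesenteric library as well. NK cell and cytotoxic genes had the same direction but a wider spread in the omentum. Of 12 NK markers 6 were mesenteric identity genes, and 3 passed limma. Gzma was at 142, 2.37 and 57.4 against 1092, 667 and 449, and Nkg7 at 205, 13.3 and 138 against 1050.3, 641 and 574. Gzma and Nkg7 did not pass (adjusted p = 0.075 and 0.077). The T cell list summed to 29.7 to 135.0 FPKM in the omentum and 684.2 to 1456 in the mesentery, and the NK list to 29.3 to 493.2 and 1342 to 2977. T cells largely lack F4/80, which the gate required, and whether lymphocytes were sorted with the macrophages was not tested. Without every marker of cell types other than macrophages and monocytes, 573 of the 634 identity genes were left, 328 omental and 245 mesenteric. The stromal and T cell genes that were on no marker list, such as Igfbp6, Sparc, Serpinh1, Lck, Tcf7 and Lef1, are among the 573.

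Several lists held few or no identity genes. Over all expressed genes the shares were also small, 2.73% omental and 2.12% mesenteric. Counts of 0 or 1 in lists of this size lie near those shares and are no result about the functions. None of the 35 expressed integrin and adhesion genes, of the 30 cell cycle genes or of the 16 genes of MHC class I presentation was an identity gene. Limma called 1 omental and 2 mesenteric adhesion genes, 0 cell cycle genes in either direction, and 2 class I genes toward the mesentery. All 16 class I genes were lower in the omentum on average, with a median log2 difference of -0.44, and the mean log2(FPKM + 1) of the list was 7.73 to 7.84 in the omental libraries and 8.23 to 8.40 in the mesenteric ones, with 73.3% of its sum of squares between the tissues. Of 16 genes of MHC class II presentation and costimulation 1 was an identity gene, Cd80, at 7.92, 6.51 and 6.16 against 2.11, 2.46 and 2.26. H2-Ab1, a class II chain, was at 10226, 15011 and 7017 in the omentum and 4487, 6223 and 6002 in the mesentery (adjusted p = 0.21). Time carried a larger share of the sum of squares than tissue for the macrophage markers, 52.3% against 37.4%. Such shares are uneven by design, since 3 time points can take up more of the spread than 2 tissues. For the class II list the order turned on Cd74, the invariant chain, which was listed at 0 in the omental library of 24 h (26905, 0 and 15010.0 against 11323, 13324 and 14370.1). Time carried 40.2% and tissue 20.9% with Cd74, against 31.5% and 51.2% without it, an alternative chosen after seeing the data. Of 6 expressed endothelial and 5 adipocyte markers, 0 were identity genes. Of 12 B cell markers 1 was, Vpreb3, at 4.07, 4.58 and 5.41 against 47.1, 25.7 and 65.4. The B cell list had 9 of 12 differences above 0, with a median of 0.56 on the log2 scale, and summed to 1011 to 4417 FPKM in the omentum and 656.0 to 1910 in the mesentery. Ms4a1, which encodes CD20, was at 883, 158 and 501 against 88.8, 47.1 and 219 and overlapped (adjusted p = 0.13).

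The omental libraries varied more among themselves than the mesenteric ones, over all expressed genes as well as over the identity genes. Of the omental genes, 259 of 357 (72.5%) varied at least 2-fold among the omental libraries, against 25.9% of all expressed genes. Of the mesenteric genes, 80 of 277 (28.9%) varied as much among the mesenteric libraries, against 8.84%. The identity genes and all expressed genes are not on an equal footing here. By the rule, an identity gene reached an FPKM of 1 in all libraries of its tissue, whereas an expressed gene needed this in only 1 library. Weakly expressed genes vary less on the log2(FPKM + 1) scale. The omental genes were highest at 7 d in 197 cases, at 24 h in 121 and in naive omentum in 39. The mesenteric genes were highest at 24 h in 135 cases, in naive mesentery in 80 and at 7 d in 62. These counts were not set against those of all expressed genes. The omental identity genes held 4.39%, 7.17% and 8.85% of the summed FPKM of the omental libraries and 0.574% to 0.746% in the mesentery. The mesenteric ones held 2.83% to 3.63% in the mesentery and 0.240% to 0.488% in the omentum. That each set held more in its own tissue follows from the rule that picked it, and only the size of the shares is a description. In 177 omental genes every mesenteric library was below 1 FPKM, and in 79 mesenteric genes every omental library was. Taken pair by pair, 514 genes were at least 2-fold higher in the omentum and 392 in the mesentery at all 3 time points, out of 1068 and 1051 in naive mice, 1812 and 1333 at 24 h and 1842 and 652 at 7 d.

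Of the 634 identity genes, 620 had a position in the annotation (NCBIM37, GENCODE M1), and 19 lay in 6 runs of at least 3 genes of the same direction with starts no more than 100 kb apart. Besides the Apol and Cd3 runs, the omental S100a16, S100a6, S100a8 and S100a9 lay at chr3:90341176-90499643, and the omental Ifitm2, Ifitm3 and Ifitm6 at chr7:148140736-148202791. S100a6 was at 1337, 1089 and 1037 against 204, 263 and 142 (log2 difference 2.54, SE 0.26, adjusted p = 0.0038). Ifitm3, an interferon-induced membrane protein that blocks virus entry, was at 965, 2051 and 931 against 168, 234 and 117 (log2 difference 2.88, SE 0.39, adjusted p = 0.0083). Ifitm3 was the 1 identity gene of the 26 genes of the type I interferon list. The mesenteric runs also held Serpinb6b, Serpinb9 and Serpinb9b, which encode inhibitors of serine proteases, on chromosome 13, and Ankrd35, Nudt17 and Cd160 on chromosome 3.

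Further abundant identity genes belonged to no list. Anxa1, annexin A1, an anti-inflammatory phospholipid-binding protein, was at 238, 621 and 469.8 in the omentum and 50.5, 45.4 and 33.5 in the mesentery (log2 difference 3.24, SE 0.36, adjusted p = 0.0043). Capg, an actin-capping protein, was at 864, 635 and 409 against 155, 129 and 202. AW112010 was at 193, 238 and 265 against 1389.7, 1433 and 927 (log2 difference -2.41, SE 0.24, adjusted p = 0.0034), and Car2, carbonic anhydrase 2, at 7.98, 3.78 and 13.1 against 148, 272 and 165. Of the 634 identity genes 464 were on none of the lists.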

How the data were processed

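Macrophages of 6 libraries were analysed, 1 per tissue and time point, grouped by the tissue in the labels. Reads were checked with FastQC 0.11.4 and aligned to mm9 with STAR 2.4.2a by the authors, per the submitters' processing notes and the methods of the study, with a UCSC annotation, and Cufflinks gave the deposited FPKM per gene symbol. No read counts were used here, so the depth behind a value is known only roughly, and no counting interval is given.

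FPKM were tested as log2(FPKM + 1) with limma 3.58.1 in R 4.3.3 (lmFit, eBayes with trend, two-sided, Benjamini-Hochberg over the 13064 genes that reached an FPKM of 1 in any library), at an adjusted p below 0.05 and a 2-fold difference of the tissue means. Tables were handled with Python 3.11.15 and pandas 2.3.3 and figures drawn with matplotlib 3.10.9. Separate groups of mice are described for the omentum in the methods of the study and are not given for the mesentery in the sources used here, and p-values measure the spread between these libraries, which includes that between time points. On simulated data of 13064 genes, limma called 41 of 67 genes changed 2-fold, 63 of 63 changed 4-fold and 70 of 70 changed 8-fold, with 0 false calls. The simulation gave every gene the same normal spread, the median of the data, and no change with time. Only well expressed genes were changed in it. These rates therefore need not hold for the real libraries, where the spread differs between genes and includes time.

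Genes named are the 20 per direction with the widest gap reaching an FPKM of 10 in all libraries of the higher tissue, members of 58 lists of marker, pathway and study genes (917 of 927 symbols were in the table), and the sort genes, Ccl6, Ccl9 and Ccr1. A few others were named after their values were seen: the genes nearest the threshold, neighbors in a run, abundant genes of no list and genes with a promoter motif. Some genes counted in the lists are not reported here by name. The members and lists were chosen with earlier results of these data known. Shared windows are 75-base stretches of a coding transcript (GENCODE M1) found in another gene. Alternatives were other pseudocounts, filters, scalings and gaps, a block for the time point, limma without trend and each library left out.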

Additional observations from a re-analysis of the deposited data

Results flagged for a closer look

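Of 869 expressed genes on the lists or named here, 11 with an FPKM of at least 10 in a library differed at least 2-fold in opposite directions at different time points. Over all 13064 expressed genes, without that minimum, 87 did so. These differences between time points were not tested, since each rests on 1 library per tissue. In 5 of the 11 genes, which interferon can induce, the level was lower in naive omentum than in naive mesentery and higher at a later time. Cxcl10, a chemokine for activated T cells, differed by -1.46 (log2, omentum minus mesentery) in naive mice and by 2.98 at 7 d. Ifit1 differed by -1.27 in naive mice and 1.44 at 7 d, Isg15 by -1.53 and 1.10, and the GTPase gene Iigp1 by -1.05 and 1.67. Oasl1 differed by -1.20 in naive mice and 1.29 at 24 h.

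Stra6, a retinol transporter, differed by -1.09 in naive mice and 3.50 at 7 d. The lectin Clec4n differed by -2.18 in naive mice and 1.03 at 24 h. Ctla4, an inhibitory receptor of T cells, differed by -1.05 at 24 h and 1.79 at 7 d. Fcna, a ficolin of macrophages, went the other way over time, with 1.93 in naive mice and -1.92 at 7 d, as did Tpsb2, a mast cell tryptase, with 4.24 in naive mice and -2.79 at 24 h. Cd74, the invariant chain of MHC class II, differed by 1.25 in naive mice and by -13.70 at 24 h. Cd74 was listed at 0 in the omental library of 24 h, where H2-Ab1 was at 15011 FPKM, and such a 0 can be a failed estimate.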

How the results depend on the processing

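The number of genes called by limma, 1023, moved to 531 with a pseudocount of 5, to 525 with an FPKM of at least 1 in all 6 libraries and to 635 with no filter on low values, and ranged from 304 to 1848 when each library was left out. With the time point as a replicate block it was 1165, of which 919 genes were shared with the calls without the block. The labels give the libraries no replicate numbers. The number of identity genes, 634, moved to 1053 with a pseudocount of 0.1, to 285 with one of 5, to 260 with an FPKM of at least 1 in all 6 libraries, to 188 with a 4-fold and 1168 with a 1.5-fold gap, and ranged from 690 to 1252 when each library was left out, which can only widen a gene's gap. The other alternatives stayed within 1.5 times of each count. Rescaling to a sum of 1000000 shifted the median difference of all genes by -0.18 and gave 370 omental and 388 mesenteric identity genes. Of the named genes, Emr1 (0.29) turned to -0.13 without the naive mesenteric library and to -0.47 without the omental library of 24 h, and reached 0.72 without the mesenteric library of 24 h. Csf1r (0.03) turned to -0.18 under that rescaling and ranged from -0.73 to 0.50 when each library was left out. Neither passed limma. Of 3398 values of named genes under an alternative, 314 lost significance and 78 gained it. No list with a median difference of at least 2-fold changed its direction. Without read counts, differences of genes near 1 FPKM cannot be told from counting error.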

Other observations

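Beside the steady differences, many genes differed at least 2-fold between the tissues at only 1 time point. In naive mice alone, 275 genes were higher in the omentum and 314 in the mesentery, and at 24 h alone 539 and 567. At 7 d alone the numbers were 544 and 81. In 87 genes the difference was at least 2-fold in each direction at different time points. Each of these numbers compares 1 library with 1 library, has no replicate check and was not tested.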
